A study of Danio rerio with 30 samples.

Results

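The resting miRNA repertoire described here comes from the spleen of AB zebrafish, a common laboratory strain. The fish were adults 100 days old, had developed at an incubation temperature of 28 °C, the usual rearing temperature, and are labelled as controls. Its members are the 5 control libraries labelled t28ct1, t28ct2, t28ct3, t28ct5 and t28ct7, chosen by these labels alone out of 30 small RNA libraries, and referred to as replicates 1, 2, 3, 5 and 7. The 25 other libraries come from other incubation temperatures or from fish given lipopolysaccharide and were not used. Whether the controls received a sham injection, the sex of the fish and whether each library is 1 fish are not stated in the labels, so the spread between libraries may be partly technical. A whole spleen holds white and red blood cells, vessels and connective tissue, so fewer cells of a type and less RNA per cell cannot be told apart.

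MicroRNAs (miRNAs) are short RNAs cut from a hairpin precursor, and each guides an Argonaute protein to messenger RNAs that it represses. Either strand of the hairpin can be kept, the 5p arm from its 5′ side or the 3p arm from its 3′ side, and usually one is loaded and the other degraded. Paralogous miRNAs form families that share the seed, the stretch near the 5′ end that pairs with the target, and members of a family often repress the same messages. The spleen of a fish filters blood, stores lymphocytes and breaks down worn red cells, and its cell types carry well-known miRNAs, such as miR-150 in lymphocytes, miR-223 in granulocytes, miR-451 in red cells and miR-126 in endothelium.

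The 5 libraries held 304126 to 834140 counts, replicate 5 being the shallowest and replicate 2 the deepest. With every read taken as an independent molecule, a count of 0 for a row therefore allows up to 9.86 CPM in replicate 5 and 3.60 CPM in replicate 2. Where reads are PCR copies, the level behind a 0 can be higher. CPM are counts divided by the library total and multiplied by 1000000. The table lists 8866 rows, of which 591 had a count in at least 1 of the 5 libraries, and 123 had counts in all 5, which held 97.6% of the counts on average. Rows with zebrafish names numbered 176 and held 85.2 ± 3.42% of the counts (SD, n = 5). Another 340 rows carried names of other species (9.93 ± 2.73%) and 75 were named by a chromosome with a running number (4.92 ± 1.66%). Names without a prefix below are zebrafish rows, and a prefix such as gmo (Atlantic cod), oni (Nile tilapia), ola (medaka), ssa (Atlantic salmon), ccr (carp), hsa (human) or mmu (mouse) marks a row named after that species. Their reads may be zebrafish reads divided between near-identical sequences, so their assignment is uncertain.

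The resting spleen was dominated by let-7, a family that accumulates as cells differentiate, and by miR-92a-3p. Of the 2 genes that match miR-92a-3p by name, 1 lies in the proliferation-linked miR-17-92 gene group and the other in a group with genes of miR-17a and miR-18b. let-7a averaged 321025 ± 124019 CPM (SD, n = 5) and miR-92a-3p averaged 183392 ± 122900 CPM. miR-21, which is abundant in activated leukocytes and in inflamed tissue, followed with 66927 ± 11938 CPM. The 10 most abundant rows held 76.5 ± 0.749% of the counts and 2 or 3 rows were enough to reach 50% of a library. Evenness was low, since the entropy of the shares equalled that of 16.4 ± 1.67 equally abundant rows (exponential of the Shannon entropy), and 25 to 29 rows held 90% of each library.

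**Figure D1:**
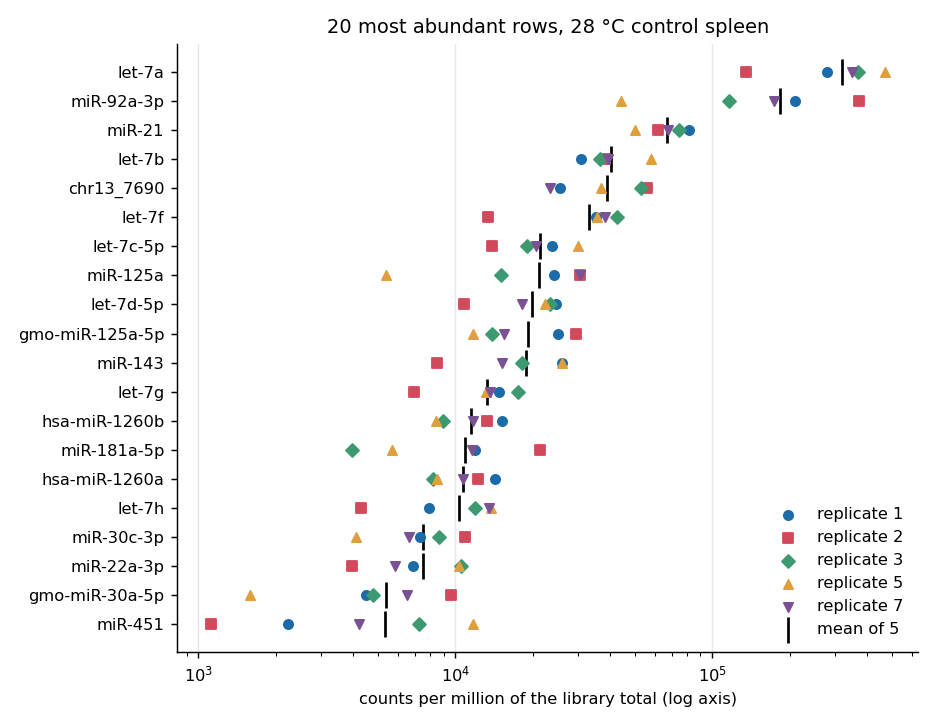
CPM of the 20 most abundant rows in each of the 5 control libraries at 28 °C (symbols) with the mean (vertical bar), on a log axis. let-7a lies highest in 4 libraries and miR-92a-3p in replicate 2, while miR-21 holds rank 3 in every library.

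let-7a measured 280402, 134833, 369779, 469115 and 350995 CPM in replicates 1, 2, 3, 5 and 7. It was the most abundant row in 4 of the 5 libraries and second in replicate 2, its lowest library. For miR-92a-3p the same libraries gave 210014, 372419, 115993, 44284 and 174247 CPM. Here replicate 2 was highest and replicate 5 lowest, an 8.41-fold range, against 3.48-fold for let-7a. miR-21 gave 81076, 61430, 74470, 50124 and 67535 CPM, a 1.62-fold range, and held rank 3 in every library. miR-92a-3p exceeded it in 4 of 5 libraries, and it exceeded let-7b in 4 of 5.

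Behind these 3 rows the order was loose. let-7b averaged 40502 ± 10196 CPM, the row chr13_7690, which has no miRNA name, 38827 ± 15011 CPM and let-7f 33105 ± 11405 CPM, and each was above the next in 3 or 4 of 5 libraries. let-7c-5p (21426 ± 5981 CPM), miR-125a (21191 ± 10924), let-7d-5p (19858 ± 5591), gmo-miR-125a-5p (19142 ± 7698) and the smooth-muscle miRNA miR-143 (18786 ± 7468) filled places 7 to 11 and could not be ordered, each being above the next within these places in 2 or 3 of 5 libraries. miR-143 was above let-7g, at place 12, in 5 of 5. The ranges of neighbours overlapped in every pair from place 1 to place 21. Among the 10 most abundant rows of a library, 6 rows recurred in all 5 libraries, namely let-7a, let-7b, let-7f, miR-92a-3p, miR-21 and chr13_7690, and 14 rows appeared in any. Places 12 to 20 were taken by let-7g, hsa-miR-1260b, the lymphocyte miRNA miR-181a-5p, hsa-miR-1260a, let-7h, miR-30c-3p, miR-22a-3p, gmo-miR-30a-5p and the red-cell miRNA miR-451, from 13237 ± 3931 down to 5306 ± 4288 CPM. Single libraries placed miR-451 between ranks 12 and 59 and gmo-miR-30a-5p between 16 and 51.

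Summed by family, with species prefix, paralogue letter and arm removed from the name, let-7 held 46.5 ± 15.6% of the counts. A family here thus goes by name and sums both arms, so its rows need not share a seed. The miR-92 family held 18.6 ± 12.4%, and 18.8 ± 12.4% together with miR-25, which shares its seed. miR-21 held 6.85 ± 1.27%, miR-125, a family active in blood stem cells and myeloid cells, 4.49 ± 1.93%, and the unnamed row chr13_7690 3.88% (coefficient of variation, CV, the SD divided by the mean, 38.7%). These 5 together held 80.3 ± 1.16%. Next came miR-1260, present here only in rows with human names (2.23 ± 0.539%), miR-30 (2.04 ± 0.493%), miR-143 (1.89 ± 0.740%), miR-181 (1.35 ± 0.786%) and miR-150 (1.06 ± 0.545%). Whether zebrafish has a miR-1260 hairpin was not checked. Under 1% each were miR-22 (0.781 ± 0.316%), miR-26, whose targets in mammals include the histone methyltransferase EZH2 (0.694 ± 0.307%), the teleost interferon-linked miR-462 (0.680 ± 0.192%), miR-16, which represses cell-cycle genes (0.669 ± 0.172%), and miR-146, a feedback inhibitor of Toll-like receptor signalling (0.668 ± 0.343%). Counting error was small beside these spreads, the widest 95% Wilson interval of a family share in any library being ± 0.170 percentage points. That interval covers counting error only, since PCR copies are not independent molecules.

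**Figure D2:**
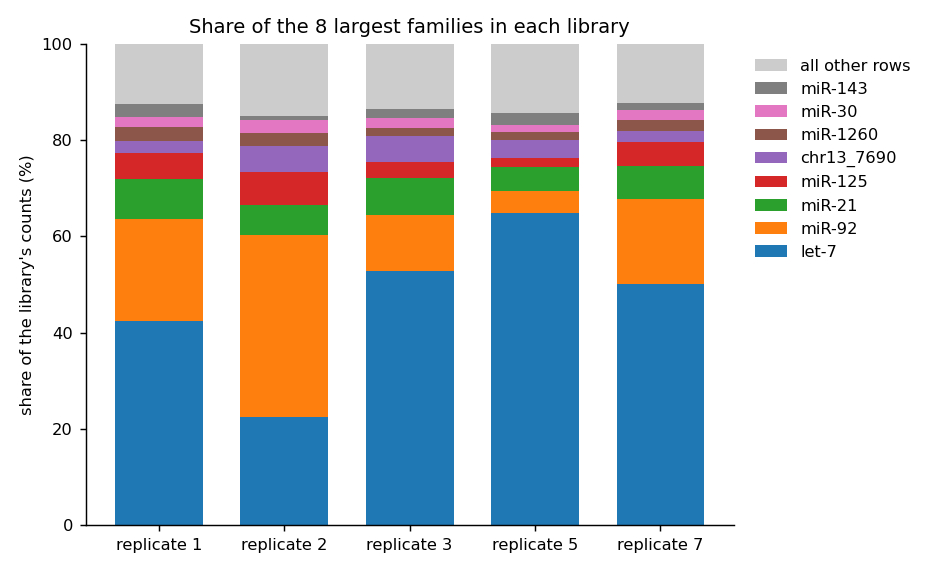
Share of the counts (%) held by the 8 largest families in each of the 5 libraries, stacked to 100%. let-7 takes 22.5% in replicate 2 and 64.8% in replicate 5, and miR-92 varies in the opposite order, from 37.7% to 4.67%.

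let-7 and the miR-92 group varied in opposite order. let-7 held 42.4%, 22.5%, 52.7%, 64.8% and 50.0% of replicates 1, 2, 3, 5 and 7, and miR-92, miR-25 and miR-363 together held 21.4%, 38.0%, 12.0%, 4.84% and 18.0%. Ranking the libraries by one gives the reverse of ranking them by the other. Their ratio ran from 0.592 in replicate 2 to 13.4 in replicate 5, while their sum stayed between 60.5 and 69.6% (65.3 ± 3.58%). Shares of a library add up to 100%, so a larger share of one family lowers the summed share of the others, though not each of them. The libraries at the ends are also the deepest (834140 counts) and the shallowest (304126 counts), and the part of depth in this order was not tested.

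Other abundant miRNAs also had their extremes in these libraries. Of the 58 rows with a mean of at least 1000 CPM, 11 were highest in replicate 2 and lowest in replicate 5, among them miR-92a-3p, oni-miR-150, miR-125b-5p, miR-222a-3p, miR-462 and gmo-miR-30a-5p. Conversely, 8 rows were highest in replicate 5 and lowest in replicate 2, among them let-7a, let-7c-5p, let-7h, miR-451, miR-26a-5p and miR-26b. These 2 libraries were singled out after their values were seen, and the rows are listed without a test.

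Within the let-7 family let-7a led in every library. It made up 67.7 ± 4.93% of the family (59.9 to 72.4%), let-7b 9.58 ± 4.17%, let-7f 7.11 ± 1.28%, let-7c-5p 4.82 ± 1.06%, let-7d-5p 4.42 ± 0.949%, let-7g 2.94 ± 0.586% and let-7h 2.18 ± 0.341%. let-7i and let-7j stayed under 1% of it. In replicate 2, where the family was smallest, let-7b reached 16.9% of it, against 6.95 to 8.92% in the other 4 libraries. Zebrafish rows held 99.7% of the family. The row let-7a matches 6 precursor genes on 6 chromosomes in RefSeq (GRCz12tu), whereas let-7b and let-7f match 1 each, so its level is a sum over loci.

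Other families differed in how far 1 row led them. miR-92a-3p made up 97.9 ± 1.75% of the miR-92 family, miR-21 97.8 ± 1.09% of its family, miR-143 99.4 ± 0.853% and miR-22a-3p 96.7 ± 4.15%. In contrast, miR-125 was divided between miR-125a (44.9 ± 10.8%) and gmo-miR-125a-5p (45.3 ± 12.5%), and miR-125a alone ranged from 5366 CPM in replicate 5 to 30673 CPM in replicate 7. miR-150 lay mostly in rows with names of other fish, with oni-miR-150 at 46.1 ± 12.8%, gmo-miR-150-5p at 25.5 ± 8.12% and the zebrafish row miR-150 at 28.4 ± 12.3%. Similarly, oni-miR-462 held 70.4 ± 10.4% of the miR-462 family. The rows hsa-miR-1260b and hsa-miR-1260a kept a nearly constant division, 51.6 ± 1.03% to 48.4 ± 1.03%. For such families the values of single rows are uncertain, since reads of 1 miRNA may have been divided between its rows. Whether a read could be counted in more than 1 row is not known, so the family sum is uncertain too.

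In the miR-30 family, which is widespread in differentiated tissue, the leading row was miR-30c-3p (36.2 ± 4.83% of the family), ahead of gmo-miR-30a-5p (24.9 ± 9.39%) and oni-miR-30b (10.3%, from 6.09 to 16.8%). The miR-26 family was miR-26a-5p (75.1 ± 3.77%) and miR-26b (24.6 ± 3.81%). miR-16b held 50.6 ± 7.24% of the miR-16 family, with miR-16c-5p at 24.8 ± 12.1% and miR-16c-3p at 23.3 ± 6.55%. miR-146a and miR-146b were nearly equal, at 51.8 ± 4.95% and 46.5 ± 6.91% of their family. miR-181a-5p, which tunes antigen-receptor signalling in mammalian T cells, made up 79.0 ± 6.36% of the miR-181 family.

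Only rows whose names end in 5p or 3p can be assigned to an arm. They numbered 164 and 159 and held 10.9 ± 1.28% and 22.7 ± 12.3% of the counts. The other 66.4 ± 13.2% lay in 268 rows with no arm in the name, let-7a, let-7b, let-7f, miR-21 and chr13_7690 among them. The balance below leaves these rows out and is not that of all counts. let-7a alone averaged 321025 CPM, and let-7c and let-7d, whose arms are named, were 99.8% and 99.7% 5p in their zebrafish rows. Among arm-named counts the 5p share was 33.4%, 22.3%, 37.9%, 53.4% and 31.8% in replicates 1, 2, 3, 5 and 7 (mean 35.8 ± 11.4%). The 3p share was larger in 4 of 5 libraries, with p = 0.125 in an exact two-sided sign-flip permutation test. The smallest p that 5 libraries allow is 0.0625, so this test could not reach 0.05 and decides nothing. This balance rested on 1 row, because miR-92a-3p alone held 75.2 ± 15.8% of the 3p counts. Without it 5p arms held 71.6 ± 2.81% (68.8 to 75.8%) and were larger in 5 of 5 libraries, given as a description because the row was left out for its size.

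**Figure D3:**
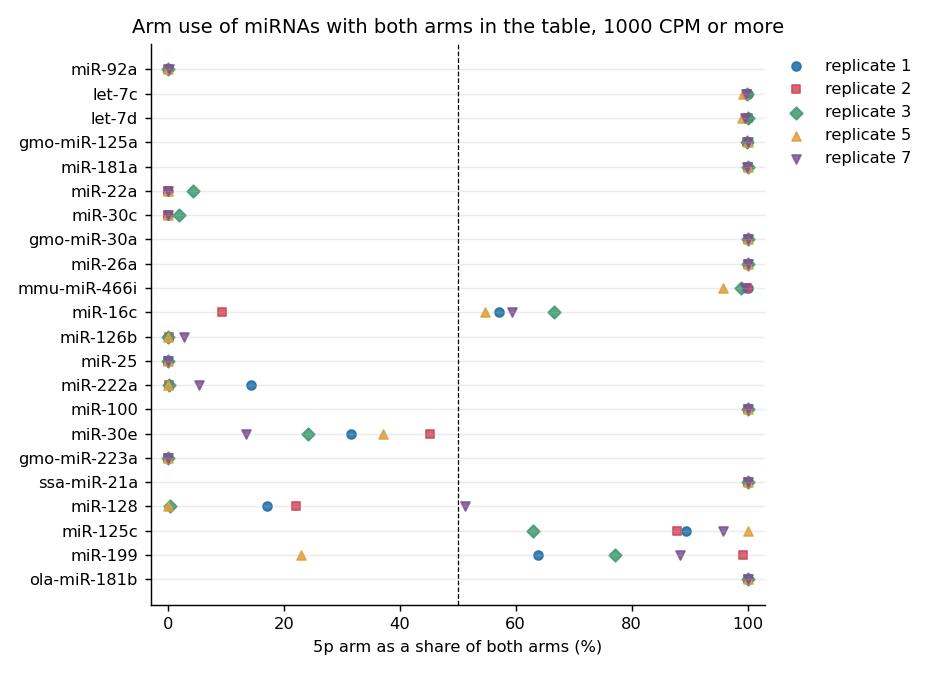
5p arm as a share of both arms (%) for the 22 miRNAs with both arms among the rows and at least 1000 CPM in sum, 1 symbol for each library. Most miRNAs sit near 0 or 100% in all 5 libraries, and miR-16c, miR-128 and miR-199 cross the dashed line at 50%.

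miRNA by miRNA, 1 arm usually held nearly all the counts of rows paired by exact name. Of the 22 miRNAs that have both arms among the rows and a summed mean of at least 1000 CPM, 13 led with the 5p arm and 9 with the 3p arm, and in 17 the leading arm held more than 90% on average. The median share of the leading arm was 99.8%. In 11 the 5p arm was higher in all 5 libraries, in 8 the 3p arm was, and in 3 the leading arm differed between libraries. Because of this pairing, rows named after a single precursor, such as miR-181a-2-3p, are not in these pairs, and some miRNAs enter under names of more than 1 species. Arms under different species names, such as gmo-miR-125a-5p and ssa-miR-125a-3p, are not paired either, which can raise the share of the leading arm.

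miR-92a kept its 3p arm, the 5p arm averaging 105 ± 142 CPM against 183392 CPM, or 0.0437 ± 0.0636% of both. let-7c and let-7d kept the 5p arm in their zebrafish rows (99.8 ± 0.319% and 99.7 ± 0.410%). The row hsa-let-7d-3p (159 ± 354 CPM, counted in 2 libraries) stands outside the let-7d pair. It reached 792 CPM in replicate 2, where let-7d-5p measured 10848 CPM and its paired 3p row 0. The 5p arm also led in gmo-miR-125a and miR-181a, whose paired 3p rows had 2 counts and 1 count in all 5 libraries together. For miR-26a and gmo-miR-30a the 3p arm was listed at 0. The rows miR-181a-2-3p (113 ± 180 CPM, counted in 3 libraries) and miR-26a-2-3p (20.5 ± 45.2 CPM, counted in 2) stand outside these pairs and were far below the 5p arms. Likewise ssa-miR-125a-3p (278 ± 384 CPM, counted in 3 libraries) stands outside the gmo-miR-125a pair and was far below its 5p row. miR-22a, miR-30c and the endothelial miR-126b kept the 3p arm, with 5p shares of 0.878 ± 1.95%, 0.374 ± 0.831% and 0.584 ± 1.18%. The row ola-miR-30c (336 CPM) has no arm in its name and stands outside the miR-30c pair, whose 5p row averaged 33.0 CPM. For mmu-miR-466i, named after mouse, 98.8 ± 1.79% of the counts lay in the 5p row, and whether zebrafish has this hairpin was not checked.

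The leading arm differed between libraries in miR-16c, miR-128 and miR-199. The 5p arm of miR-16c averaged 1724 ± 972 CPM and its 3p arm 1503 ± 337 CPM. Its 5p arm measured 1739.8, 186, 2749.9, 2315 and 1631 CPM in replicates 1, 2, 3, 5 and 7, so that replicate 2, at 9.39% 5p, stood apart from 4 libraries above 50%. miR-128 was mainly 3p (1360 ± 1009 against 170 ± 164 CPM), with 51.2% 5p in replicate 7 and 0% in replicate 5. The stromal miR-199 averaged 779 ± 529 CPM for 5p and 390 ± 419 CPM for the paired 3p row, with 5p shares from 23.0 to 99.1%. The separate row miR-199-3-3p held 828 ± 909 CPM, and with it added the 3p side would be the larger on average. Further down, miR-27b led with 3p in 4 libraries and had only 5p counts in replicate 5 (24.3 ± 43.2% 5p on average).

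**Figure D4:**
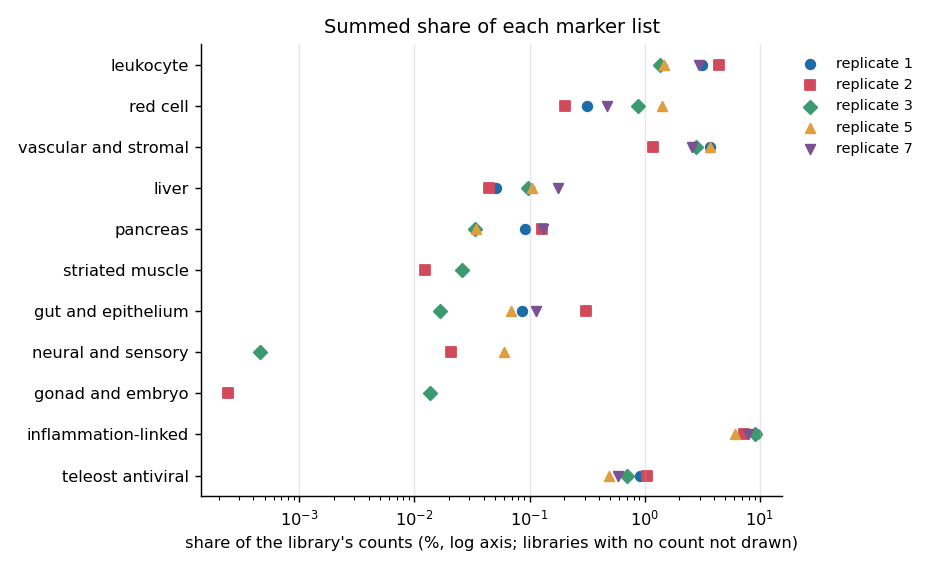
Summed share of the counts (%, log axis) of each list of miRNAs in the 5 libraries; libraries without a count of a list are not drawn. The lists of leukocyte, red-cell, vascular, inflammation-linked and antiviral miRNAs lie at 0.202% or above in every library, and no list of another organ exceeds 0.307%. These limits overlap, since in replicate 2 the gut and epithelium list (0.307%) lies above the red-cell list (0.202%).

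Markers of spleen cells were present in all 5 libraries. Leukocyte miRNAs (miR-142, 150, 155, 181 and 223, 27 rows) held 3.16%, 4.38%, 1.36%, 1.46% and 2.95% of replicates 1, 2, 3, 5 and 7 (mean 2.66 ± 1.27%), with replicates 3 and 5 lowest. By family, miR-181 averaged 13487 ± 7865 CPM, miR-150, which restrains c-myb in lymphocytes of mammals, 10599.8 ± 5453 CPM and the granulocyte miRNA miR-223 1985 ± 716 CPM. miR-142, found in nearly all blood cells of vertebrates, averaged 361 ± 343 CPM and was at 744, 5.99, 4.59, 434 and 615 CPM. It was thus close to the limit of a count of 0 in replicates 2 and 3, where miR-150 reached 16237 and 4988 CPM and miR-223 1531 and 3158 CPM. miR-155, made by activated lymphocytes, ranged from 0 in replicate 5 to 580 CPM in replicate 2.

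Red-cell miRNAs (miR-144, 451 and 486, 8 rows) held 0.318%, 0.202%, 0.878%, 1.42% and 0.470% of the same libraries (mean 0.657 ± 0.496%). miR-451, which is cut by Argonaute 2 in place of Dicer and promotes red-cell maturation, measured 2230, 1119, 7193, 11771 and 4215 CPM, a 10.5-fold range with replicate 5 highest and replicate 2 lowest. Rows of miR-486 were listed at 0. Vascular and stromal miRNAs (miR-126, 143, 145, 199 and 214, 26 rows) held 3.72%, 1.18%, 2.80%, 3.68% and 2.58% (mean 2.79 ± 1.04%). miR-126b-3p averaged 3116 ± 1025 CPM and oni-miR-145 1863 ± 811 CPM. The summed lists put replicate 2 lowest for red-cell and for vascular miRNAs and highest for leukocyte miRNAs. Each vascular and stromal family was also lowest there, but not all red-cell and leukocyte families followed their list. miR-144 measured 953, 906, 1587, 2407 and 203 CPM in replicates 1, 2, 3, 5 and 7, lowest in replicate 7. Among leukocyte miRNAs, miR-181, miR-150 and miR-155 were highest in replicate 2, whereas miR-142 was highest in replicate 1 and miR-223 in replicate 3.

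Inflammation-linked miRNAs (miR-21, 146, 155, 221, 222, 132, 212 and 147, 18 rows) held 7.89 ± 1.32%, 6.05 to 9.22%, and had the lowest CV of the 11 lists at 16.7%. This share is mostly miR-21, beside which miR-146a averaged 3362 ± 1465 CPM, miR-146b 3238 ± 2045 CPM and miR-222a-3p 2249 ± 1119 CPM. miR-132 and miR-212 were at 1 count each in the 5 libraries together, and miR-147 was listed at 0. The teleost antiviral pair miR-462 and miR-731 held 0.741 ± 0.227%.

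miRNAs of other organs summed to 0.324 ± 0.137% of the counts, 0.188% in replicate 3 and 0.512% in replicate 2 being the extremes. In replicate 2 this sum was above the red-cell share (0.202%). It was below that share in replicates 1, 3, 5 and 7, with 0.421% against 0.470% in replicate 7. The liver miRNA miR-122 averaged 953 ± 532 CPM and was counted in all 5 libraries (514, 442, 978, 1059 and 1771 CPM), a share of 0.0953 ± 0.0532%. Pancreas miRNAs held 0.0834 ± 0.0478% and were led on average by the endocrine miR-375 (665 ± 499 CPM, from 9.17 to 1271). In replicate 3, where miR-375 was lowest, miR-216 stood at 321 CPM, and it was counted in 2 libraries. Gut and epithelium miRNAs held 0.118 ± 0.111%, led by ola-miR-192-3p (391 ± 349 CPM, counted in 4 libraries), with miR-194 and miR-429 listed at 0. Striated muscle miRNAs held 0.00770 ± 0.0116% and were counted in 2 libraries, with miR-1 at 53.6 ± 115 CPM. Neural and sensory miRNAs held 0.0163 ± 0.0261%, counted in 3 libraries, with miR-124, 219, 96 and 182 listed at 0. Gonad and embryo miRNAs held 0.00277 ± 0.00606%, miR-430 having 1 count.

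Families listed as having precursors side by side in the genome did not have equal levels. Each value below sums all rows of a family, so both arms and gene copies at other places are included. miR-143 averaged 18863 ± 7401 CPM and its partner miR-145 2264 ± 1025 CPM, summed over rows, and the former was 4.73 to 13.1 times higher in the 5 libraries. In the red-cell pair miR-144 was below miR-451 in 5 of 5 libraries, at 1211 ± 829 against 5363 ± 4272 CPM. miR-462 exceeded miR-731 in 5 of 5 libraries (6801 ± 1917 against 613 ± 484 CPM), miR-222 exceeded miR-221 in 5 of 5 (2676 ± 1145 against 843 ± 702 CPM) and miR-199 exceeded miR-214 in 5 of 5 (2413 ± 1539 against 565 ± 316 CPM). miR-192 averaged 451 ± 414 CPM and was above the listed 0 of miR-194 in 4 of 5. How well each sequence is ligated and amplified was not measured, so differences in level between miRNAs hold for these libraries' reads.

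In RefSeq, 175 of the 176 counted zebrafish rows match a precursor gene by name, miR-143 being the exception, and 54 groups of miRNA genes lie within 10000 bases of a neighbour. In the miR-17-92 group 6 miRNA genes lie together. Against 183392 CPM of miR-92a-3p the rows miR-20a-5p and miR-19b-3p averaged 101 ± 147 CPM (counted in 4 libraries) and 80.3 ± 180 CPM, and miR-17a-5p and miR-19a-3p had 1 count each. miR-19b-3p was counted in replicate 2 alone. miR-92a-3p also matches a second gene, which lies in another group with genes of miR-17a and miR-18b, and miR-18b-3p averaged 8.63 CPM. Rows named after other species are outside this match, among them hsa-miR-18a-3p at 199 ± 128 CPM. In the let-7 groups, let-7a exceeded its neighbours miR-100-5p (2096 ± 690 CPM) and miR-125b-5p (2579.7 ± 1022 CPM), and let-7g and let-7h, which are neighbours, averaged 13237 and 10303 CPM. A mature miRNA made from several genes cannot be assigned to 1 of its groups.

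**Figure D5:**
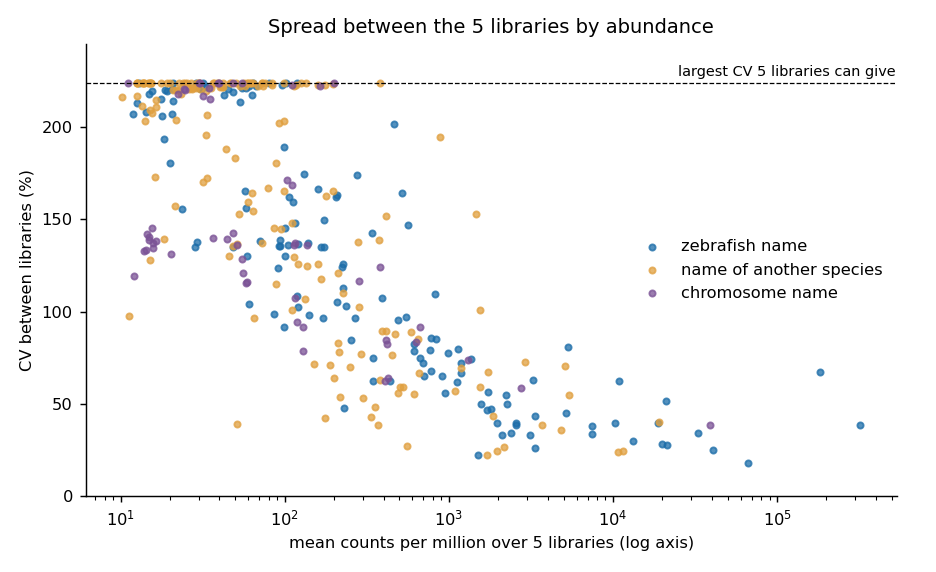
CV between the 5 libraries (%) against mean CPM (log axis) for the 363 rows that average at least 10 CPM, coloured by the kind of name. The CV falls towards abundant rows, with miR-21 lowest at 17.8%, and many rows under 100 CPM lie at the dashed line of 224%, the value of a row counted in 1 library alone.

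Spread between libraries depended on abundance. The 58 rows with a mean of at least 1000 CPM had a median CV of 43.6% (quartiles 33.7 and 62.3%). Counting error alone, with every read taken as an independent molecule, would give these rows a median CV of 2.45%. Their highest library exceeded the lowest by a median of 3.54-fold over the 57 rows counted in all libraries. The 124 rows from 100 to 1000 CPM had a median CV of 106%, and the 181 rows from 10 to 100 CPM a median of 219%, close to the 224% that 5 libraries give when 4 are at 0. Over the 363 rows with a mean of at least 10 CPM, pairs of libraries had Spearman correlations of 0.548 to 0.667 (median 0.576 over 10 pairs, which share libraries; rows are not independent replicates).

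The steadiest abundant rows were miR-21 (CV 17.8%), gmo-miR-223a-3p (22.3%), miR-16c-3p (22.5%), hsa-miR-1260a (23.8%) and hsa-miR-1260b (24.6%). The most variable were mmu-miR-3963 (153%), mmu-miR-6239 (101%), miR-451 (80.8%), miR-456 (79.8%) and miR-128-3p (74.2%). mmu-miR-3963 measured 0, 5075, 3.06, 2262 and 1.40 CPM in replicates 1, 2, 3, 5 and 7, so that 2 libraries hold nearly all of it. miR-456 measured 835, 1353, 986, 6.58 and 2496 CPM, and only replicate 5 was near 0. Of the 58 rows, 18 were highest and 21 lowest in replicate 2, and 13 were highest and 17 lowest in replicate 5. In share of counts placed on different rows, replicates 2 and 5 were farthest apart (52.2%) and replicates 1 and 7 closest (13.4%). Chi-squared per degree of freedom, which sets the pairs against counting error only, was at least 163, so no pair looked like 1 library deposited under 2 labels.

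Counts of moderate size often stood beside 0. Of 271 rows with at least 100 counts in some library, 152 had 0 counts in another and 37 were counted in 1 library alone. The largest count of a row at 0 elsewhere was 4233, that of mmu-miR-3963 in replicate 2. Counts within a library were also unevenly spread over sizes. Replicate 5 had 68 rows with 1 to 5 counts, 9 rows with 6 to 50 and 52 rows with 51 to 200, and replicate 3 had 123, 21 and 70. The input was 50 ng of total RNA amplified by 22 PCR cycles, per the labels' protocols, and the part of amplification in these gaps was not tested. For rows under 1000 CPM a mean can thus rest on 1 or 2 libraries, and above that level the mean of mmu-miR-3963 rests almost wholly on 2.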

How the data were processed

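Small RNA of 5 control spleen libraries at 28 °C was sequenced after library preparation with a NEXTflex v3 kit, per the labels' protocols. The authors deposited a single table of raw, whole-number read counts for 30 libraries, 1 row for each miRNA name. Tools listed without roles are cutadapt 1.12, DESeq2 1.11.1, FastQC 0.11.5 and bcl2fastq, per the submitters' processing notes. Not given in the sources used here are the aligner, counting tool, build and miRNA reference, and no use of the random adapter bases to remove PCR copies is recorded. PCR copies may therefore be counted as separate reads.

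Shares and CPM used library totals, and means weigh the 5 libraries equally. Families and arms were read from row names. Rows with low counts were kept. For a row at 0 the limit is 3 counts of the library total, with every read taken as an independent molecule. The rows named were the 20 most abundant rows, 15 largest families, 12 most abundant arm pairs (and those among the 12 next whose leading arm differed between libraries), the 5 highest and 5 lowest CVs, the leading rows of each list and listed cluster partners. miR-27b and the other rows outside these groups were named after their values were seen. Members were taken by their labels, and this choice and the lists were made with earlier results of these data known. The list shares are therefore a description and not independent support for the cell types. There was no comparison between groups. Python 3.11.15, pandas 2.3.3 and scipy 1.17.1 were used, with edgeR 4.0.16 and DESeq2 1.42.0 for scaling factors only. The calculation of shares and CV was tested on simulated data. Mature sequences were not used here. Gene names and neighbours came from RefSeq (GRCz12tu), whose coordinates are not printed because the build of the table is not known.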

Additional observations from a re-analysis of the deposited data

Results flagged for a closer look

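Of 125 quantities with 5 library values, 27 had 1 library set apart from the other 4 by a gap above 0.71 of the whole range of the 5 (Dixon's 95% value), where chance flags about 1 in 20 groups of normally distributed values. Rows at 0 in 4 libraries, and arm shares at 0 or 100% in most, reach this gap by construction. The number 27 can therefore not be set against that rate. The high library was replicate 7 for the share of the 10 most abundant rows (77.9%, next 76.4%), and the low library was replicate 2 for let-7f (13401 CPM, next 35253). mmu-miR-6239 reached 4307 CPM in replicate 5 (next 1074).

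Arm use gave 7 such cases. The 5p share was 9.39% for miR-16c in replicate 2 (next 54.7%), 100% for miR-27b in replicate 5 and 95.7% for mmu-miR-466i in replicate 5 (next 98.8%). It was 4.36% for miR-22a and 1.86% for miR-30c, both in replicate 3, 2.69% for miR-126b in replicate 7 and 99.988% for miR-181a in replicate 7, the last from 1 count.

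The blood and organ lists gave the other 17. In replicate 5 ccr-miR-144 stood at 585 CPM, miR-183-5p at 598 and miR-138-2-3p at 3.29, and in replicate 1 mmu-miR-7b-5p stood at 176 CPM. Replicate 3 held 397 CPM of ssa-miR-144-5p, 319 of miR-216b, 258 of miR-1, 136 of ssa-miR-202-5p and 1.53 of ccr-miR-133a-3p, and 0.0136% of its counts in the gonad and embryo list. Replicate 2 held 982 CPM of ipu-miR-205, 207 of miR-9-5p, 111 of dme-miR-1-3p, 2.40 of miR-206-3p and 1.20 of miR-430c-5p. Replicate 7 held 331 CPM of miR-216a and 433 of miR-200a-3p.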

How the results depend on the processing

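Most recomputed summary values were set against the spread between libraries, or between pairs of libraries for the correlation. The number of rows at 1000 CPM or more was allowed 1.5 times, and the 5p share was judged by whether the same arm stayed larger. The median CV was set against a jackknife standard error of 10.6 percentage points, computed from its values with each library left out. By these rules 114 stayed, 17 moved further and 1 reversed. The number of rows at 1000 CPM or more was 58, and 40 with zebrafish rows alone. Of the values of named rows and families 310 stayed within the spread between libraries. The other 3 did not, all with zebrafish rows alone (miR-30 1.28%, miR-150 0.301%, miR-462 0.234%). Leaving out 1 of 5 libraries cannot move a mean by as much as its SD. The 35 named values for each library left out therefore stayed within it by construction and do not bear on stability. The same holds for summary values that are means of fixed library values. For the median CV the limit comes from the same leave-out values, so these do not bear on its stability either. It was 33.0% without replicate 2, against 43.6% with all libraries. let-7a and miR-92a-3p stayed first and second by mean under every scaling (TMM, RLE, pooled counts, median) and without each library, and 9 or 10 of the 10 most abundant rows were shared. The 5p share of arm-named counts reversed to 71.6% without miR-92a-3p. With zebrafish rows alone the 10 most abundant rows held 86.8%, the 5 largest families 89.1%, the effective number of rows was 9.52, rows at equal depth 106 and the median Spearman correlation 0.740. With at least 10 counts in 3 libraries the first was 77.7%, rows at equal depth 145 and the correlation 0.754. Thinned to equal totals, the libraries showed 261 ± 34.9 rows, and 321 without replicate 5 (a larger common total). The pooled counts, which were not thinned, held 591 rows. At a minimum of 100 CPM 182 rows passed, with a median CV of 80.3%. The inverse Simpson index gave 5.93 rows. Without let-7 and the miR-92 group in the total, a setting added after the data were seen, leukocyte miRNAs held 7.54%, red-cell 2.00%, vascular 8.28% and other organs 0.933%.

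Leaving out each library in turn gave 76.3 to 77.1% for the 10 most abundant rows, 251 to 321 rows at equal depth, 41.9 to 52.5% for let-7, 14.0 to 22.3% for the miR-92 group and a median CV of 33.0 to 46.9%. Families by shared seed and arms from hairpins were not run, since mature sequences were not used here. No paired analysis was possible because there is only 1 group. With every read taken as an independent molecule, depth limits rows at 0 to at most 9.86 CPM in replicate 5. PCR copies can raise this limit.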
